A study of Mus musculus with 12 samples.

Results

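The insulin-like growth factor (IGF) system was examined at the level of its transcripts in mouse embryonic fibroblasts. The genes described are the ligand Igf1, its receptor Igf1r and the binding proteins Igfbp2, Igfbp3, Igfbp4, Igfbp5, Igfbp6 and Igfbp7. They were taken by name, as the rows of the count table whose Entrez identifiers map to these symbols, without regard to their values. These are 8 of 27179 genes in the table, and all 8 were among the 14136 genes that passed a filter on low counts.

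The cells were derived from E13.5 wild-type embryos of strain C57BL/6 and grown in medium with 10% serum at 3% oxygen. The labels give WM-8014 as a MYST inhibitor, MYST being a family of histone acetyltransferases, and WM-2474 as an inactive control. Cells were exposed to either compound at 10 µM for 96 or 240 h. Cultures numbered 5, 6 and 7 make up each of the 4 groups: WM-8014 for 96 h, WM-2474 for 96 h, WM-8014 for 240 h and WM-2474 for 240 h. No untreated cells were included among the 12 poly(A) libraries, so each effect of WM-8014 is relative to WM-2474 at the same dose and time, and the compounds form a single pair compared at 2 times.

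IGF1 and the related ligand IGF2 are secreted growth factors that signal through the IGF1 receptor, a tyrosine kinase that feeds the PI3K-AKT and MAPK pathways. Most IGF in tissue fluids is held by secreted binding proteins, which keep it from the receptor, extend its life or deliver it when proteases cut them. IGFBP7 differs from the others in its low affinity for IGF, and several binding proteins, IGFBP3, IGFBP5 and IGFBP7 among them, are part of the secretion of senescent cells. Serum brings ligand and binding proteins of its own, which RNA sequencing does not see.

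Library totals ran from 10147466 to 45903190 reads. Fibroblast markers were abundant in all libraries, with 8 genes summing to 23160 to 39946 CPM, the read count scaled to library size. Of 7 macrophage and leukocyte markers, Ptprc stayed at or below 0.477, Adgre1 0.279, Itgam 0.246 and Mrc1 0.651 CPM. The others were higher, with Csf1r reaching 6.15, Cd68 4.33 and Lyz2 3.72 CPM. The libraries are labelled female, yet all 12 held 96.3 to 124 CPM of the Y-linked gene Ddx3y and at most 4 reads of Xist. Cultures 6 and 7 of the WM-2474 group at 96 h differed from the other 10 libraries, with Misp3 at 0.724 and 0.943 CPM against 79.9 to 285 CPM and Stag3 at 1.81 and 2.5 CPM against 22.9 to 37.5 CPM. Most results that rest on this divergent WM-2474 pair are also given without it, but not those of Igf1 and Igfbp3 at 96 h.

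The genes lie on 6 chromosomes of the mouse assembly GRCm38.p6, the coordinate system of mm10. Igf1 spans chr10:87858265-87937047 and Igf1r chr7:67952257-68233668, both on the plus strand. Igfbp2 at chr1:72824480-72852474 on the plus strand and Igfbp5 at chr1:72858065-72874865 on the minus strand are neighbours whose 3' ends face each other across 5590 bases. Igfbp3 occupies chr11:7206086-7215498 on the minus strand, Igfbp4 chr11:99040005-99052655 on the plus strand, Igfbp6 chr15:102144186-102149512 on the plus strand and Igfbp7 chr5:77349240-77408045 on the minus strand. Exons of Igfbp7 overlap those of Polr2b, an RNA polymerase II subunit gene on the opposite strand, and the strand setting of the counting is not given in the sources used here.

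The promoters of Igfbp5 and Igfbp4 are shown because these 2 genes moved furthest of the 8 between the compounds at 240 h, in opposite directions, and that of Igfbp2 because it is the neighbour of Igfbp5 that did not pass. Each window runs 5' to 3' from 250 bases before to the first 50 bases after the RefSeq start (GRCm38.p6), with matches to the TATA box (TATAAA), the CCAAT box, the GC box (GGGCGG) or the E-box (CACGTG) in capitals, searched on both strands, and no matches overlapped in these windows. They lie at chr1:72874816-72875115 on the minus strand, chr11:99040994-99041293 on the plus strand and, for the first of 2 starts listed for Igfbp2, chr1:72824230-72824529 on the plus strand.
Igfbp5: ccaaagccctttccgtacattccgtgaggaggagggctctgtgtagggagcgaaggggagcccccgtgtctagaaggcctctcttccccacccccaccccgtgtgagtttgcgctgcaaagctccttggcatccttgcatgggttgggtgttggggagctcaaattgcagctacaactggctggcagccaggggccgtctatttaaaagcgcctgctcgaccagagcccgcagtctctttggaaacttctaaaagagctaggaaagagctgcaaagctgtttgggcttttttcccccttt
Igfbp4: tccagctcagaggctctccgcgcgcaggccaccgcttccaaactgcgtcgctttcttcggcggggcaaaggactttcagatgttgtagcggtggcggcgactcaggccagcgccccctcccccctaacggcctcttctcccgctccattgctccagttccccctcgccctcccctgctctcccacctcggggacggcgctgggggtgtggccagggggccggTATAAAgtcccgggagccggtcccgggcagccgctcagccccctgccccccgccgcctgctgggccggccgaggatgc
Igfbp2: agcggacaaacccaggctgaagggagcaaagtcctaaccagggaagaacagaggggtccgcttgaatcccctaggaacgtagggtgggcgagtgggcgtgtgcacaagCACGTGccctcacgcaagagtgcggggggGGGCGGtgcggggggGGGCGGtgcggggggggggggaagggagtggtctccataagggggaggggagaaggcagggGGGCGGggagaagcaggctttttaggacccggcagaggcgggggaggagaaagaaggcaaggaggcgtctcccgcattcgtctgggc
The Igfbp5 window held none of the 4 motifs, with 56.3% G or C and 10 CpG. The Igfbp4 window was denser in G and C, at 71.3% with 27 CpG, and had a TATA box with its first base at -28 from the start. The Igfbp2 window held an E-box at -142 and GC boxes at -113, -98 and -37, all on the gene's own strand. Of 32851 RefSeq promoter windows, 13.6% held the TATA box, 37.4% the CCAAT box, 35.7% the GC box and 7.15% the E-box, with a median of 52.7% G or C and 7 CpG. A match describes letters in the window and not a bound site.

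Igfbp5 and Igfbp4 set the WM-8014 cells apart, in opposite directions. Igfbp5 fell at both times and Igfbp4 rose at 240 h, with smaller increases of Igfbp6 at both times and of Igfbp7 at 96 h. Igf1r, Igfbp2, Igfbp3 and Igf1 were not called at either time by the fit without culture number. At 96 h 3 of the 8 genes passed, 2 higher and 1 lower, where 22.8% of the 14136 genes tested passed (10.9% higher and 11.8% lower). The 96 h libraries were treated as paired by culture number, a pairing inferred from correlations between libraries. It is uncertain for the divergent WM-2474 pair, whose Misp3 and Stag3 levels differed from those of the same-numbered libraries. Over all genes, cultures 6 and 7 gave correlations of 0.15 and 0.16 at 96 h, and culture 5 gave 0.14. With culture number as a block Igf1 (adjusted p = 0.000615) and Igfbp3 (adjusted p = 0.0236) were also lower at 96 h. That made 5 of 8, 2 higher and 3 lower, where 25.4% of all genes passed. At 240 h, without the block, again 3 of 8 passed, 2 higher and 1 lower, against 42.6% of all genes tested (21.2% higher and 21.4% lower), so the share that passed was near that of all genes. As an alternative, the block gave 5 of 8 at 240 h, 2 higher and 3 lower, where 44.8% of all genes passed. The median log2 fold change of the 8 genes was -0.30 at 96 h and 0.02 at 240 h, and that of all genes tested was close to 0 at both times. Fold changes and adjusted p values are from edgeR's quasi-likelihood test with Benjamini-Hochberg adjustment over all genes tested, with a threshold of 0.05. The cultures are biological replicates in the series design, and p values measure the spread between them.

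**Figure D1:**
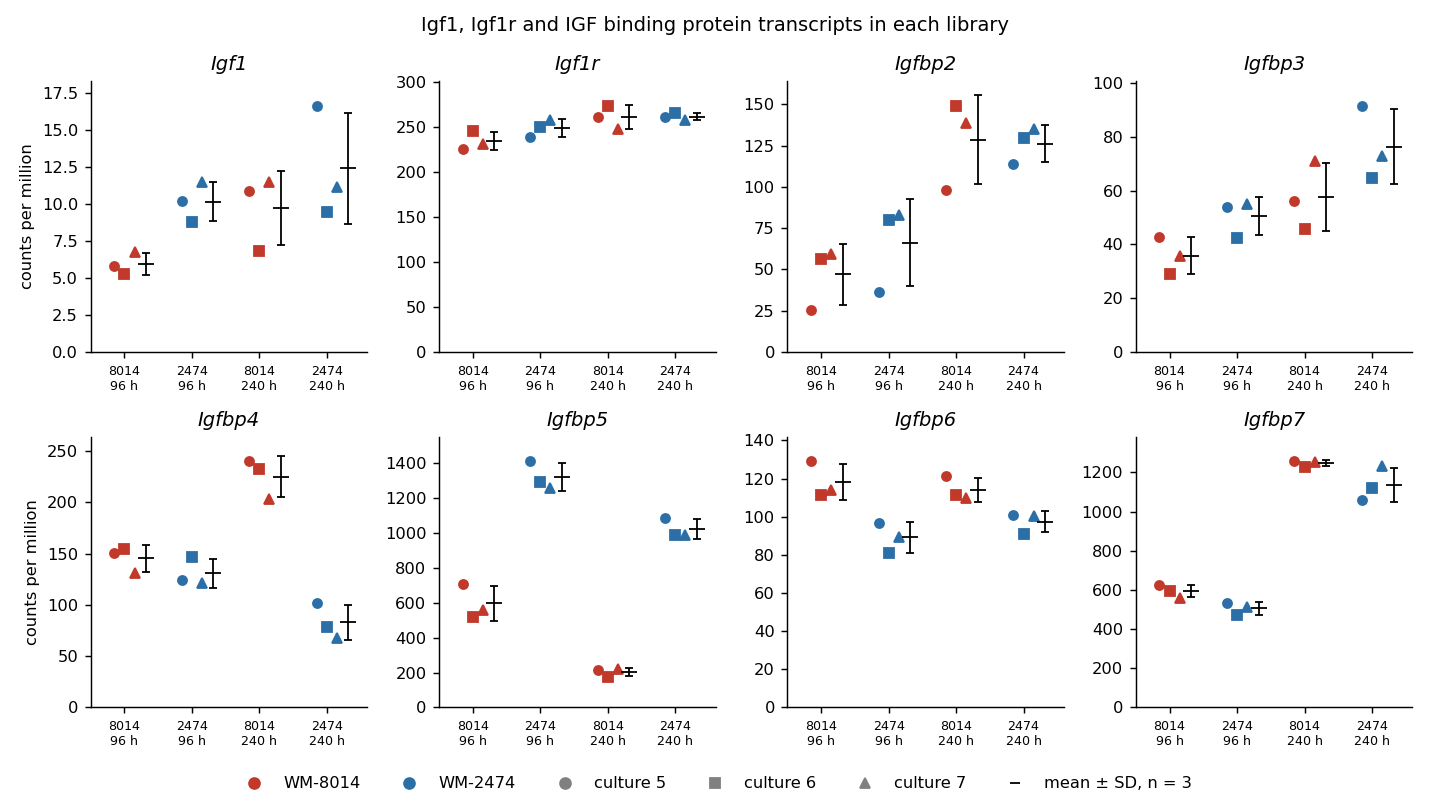
CPM of the 8 genes in each of the 12 libraries, with the mean and SD of each group of 3. Red symbols are WM-8014, blue symbols WM-2474, and the symbol's shape gives the culture number. Igfbp5 lies lower with WM-8014 at both times, and Igfbp4 lies higher with WM-8014 at 240 h.

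Igfbp5 encodes a secreted binding protein that attaches to extracellular matrix and is among the most abundant IGF binding proteins of connective tissue. Cultures 5, 6 and 7 held 709, 519 and 560 CPM of it with WM-8014 at 96 h, against 1411, 1292 and 1258 CPM with WM-2474 at 96 h. At 240 h they held 214, 176 and 221 CPM with WM-8014, against 1087, 990 and 990 CPM with WM-2474. The groups were far from overlapping at either time, and the WM-8014 240 h cultures were the lowest of all. At 96 h WM-8014 libraries held 2.21-fold less of it (log2 fold change -1.15, SE 0.127, adjusted p = 0.000386), the 104th lowest log2 fold change of 14136 genes. At 240 h it was 5.04-fold lower (log2 fold change -2.33, SE 0.134, adjusted p = 1.34e-06), the 32nd lowest. Both calls held under all 22 alternatives tried, with log2 fold changes of -1.29 to -1.06 at 96 h and -2.42 to -2.23 at 240 h.

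The effect on Igfbp5 was larger at 240 h than at 96 h. The difference between the log2 fold changes was -1.19 (SE 0.181, interaction adjusted p = 0.00407), lower in 3 of 3 cultures. Of the 8 genes 2 passed this test, 1 in each direction, where 10.7% of all genes passed (5.15% higher and 5.53% lower). With WM-8014, Igfbp5 fell further between the times, 2.94-fold lower at 240 h than at 96 h (log2 fold change -1.56, SE 0.132, adjusted p = 1.25e-05). With WM-2474 it was 1.29-fold lower at 240 h than at 96 h (log2 fold change -0.37, SE 0.125, adjusted p = 0.0465), a call that was lost under 13 of 22 alternatives. With the divergent WM-2474 pair left out the interaction was -1.09, with an adjusted p of 0.0701, and it was 0.0875 with culture 7 left out of all groups.

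Igfbp4 encodes a binding protein that mostly restrains IGF action and releases the ligand when the protease PAPP-A cuts it. Cultures 5, 6 and 7 held 240, 233 and 203 CPM with WM-8014 at 240 h, against 102, 78.3 and 68.1 CPM with WM-2474 at 240 h. At 96 h they held 150, 155 and 131 CPM with WM-8014, against 124, 147 and 121 CPM with WM-2474. The ranges were separate at 240 h and overlapped at 96 h. At 240 h WM-8014 libraries held 2.72-fold more Igfbp4 (log2 fold change 1.44, SE 0.152, adjusted p = 7.85e-05), the 70th highest of 14136 genes, and the call held under all 22 alternatives. At 96 h the log2 fold change was 0.16 with a 95% interval of -0.19 to 0.50 (adjusted p = 0.518).

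Over time Igfbp4 moved in opposite directions under the compounds. With WM-8014 it was 1.55-fold higher at 240 h than at 96 h (log2 fold change 0.63, SE 0.149, adjusted p = 0.00738). With WM-2474 it was 1.58-fold lower at 240 h than at 96 h (log2 fold change -0.66, SE 0.154, adjusted p = 0.0093). The interaction was 1.29 on the log2 scale (SE 0.214, adjusted p = 0.00652), positive in 3 of 3 cultures and the 52nd highest of all genes. With the divergent WM-2474 pair left out it was 1.21 with an adjusted p of 0.0756, and the fall with WM-2474 then had an adjusted p of 0.149. With culture 6 left out of all groups these p values were 0.167 and 0.177, and that of the rise with WM-8014 was 0.089.

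**Figure D2:**
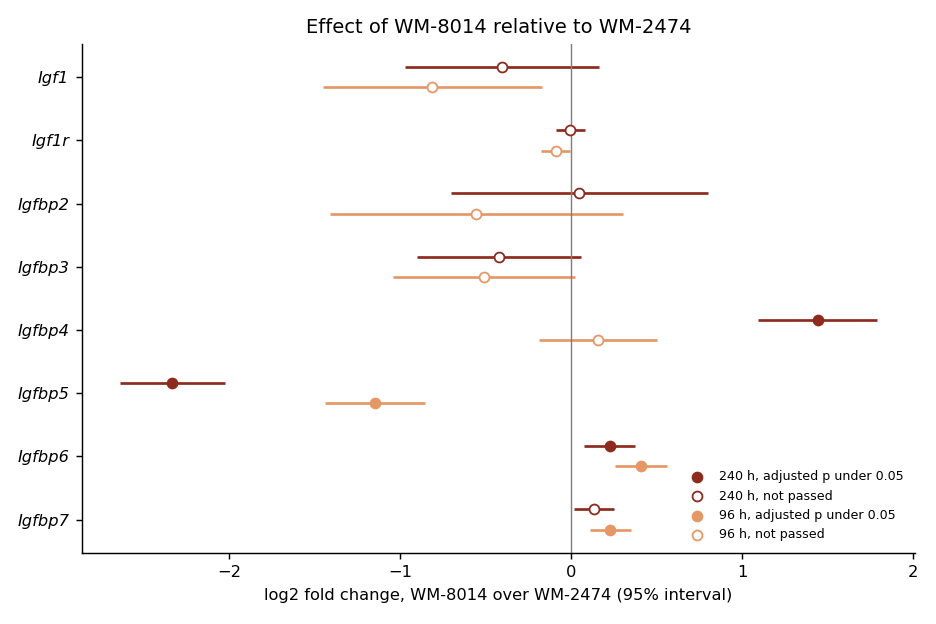
Log2 fold change of WM-8014 over WM-2474 for each gene, 240 h in dark red above 96 h in orange, with 95% intervals from edgeR's test. Filled symbols passed at an adjusted p under 0.05. Igfbp5 lies at -2.33 and -1.15 at 240 and 96 h, Igfbp4 at 1.44 at 240 h, and the intervals of Igfbp2 are among the widest.

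Igfbp6, a binding protein that prefers IGF2 to IGF1, rose modestly. Cultures 5, 6 and 7 held 129, 111 and 114 CPM with WM-8014 at 96 h, against 96.9, 81.0 and 89.6 CPM with WM-2474, and 121, 111 and 110 CPM with WM-8014 at 240 h, against 101, 91.1 and 100 CPM with WM-2474. Each WM-8014 library lay above each WM-2474 library of its time. The increase was 1.33-fold at 96 h (log2 fold change 0.41, SE 0.0696, adjusted p = 0.000876) and 1.17-fold at 240 h (log2 fold change 0.22, SE 0.0683, adjusted p = 0.0162). The 96 h call was lost when the divergent WM-2474 pair was left out (adjusted p = 0.0707). The 240 h call was lost when culture 5 was left out of the WM-8014 group (adjusted p = 0.059), when culture 6 was left out of the WM-2474 group (adjusted p = 0.0641) and when culture 7 was left out of all groups (adjusted p = 0.0909).

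Igfbp7, the low-affinity member of the family and a component of basement membranes and of the secretion of senescent cells, was high in every library and differed by more between the times than between the compounds. Cultures 5, 6 and 7 held 626, 595 and 561 CPM with WM-8014 at 96 h, against 534, 471 and 515 CPM with WM-2474. At 240 h they held 1258, 1230 and 1255 CPM with WM-8014, against 1060, 1118 and 1233 CPM with WM-2474. The compounds' ranges were separate at 96 h and overlapped narrowly at 240 h, and all 240 h libraries lay above all 96 h libraries. Igfbp7 was 1.17-fold higher with WM-8014 at 96 h (log2 fold change 0.23, SE 0.0556, adjusted p = 0.00789), with an adjusted p of 0.246 when the divergent WM-2474 pair was left out and of 0.0921 without culture 6 in all groups. At 240 h the log2 fold change was 0.13, with a 95% interval of 0.02 to 0.25 and an adjusted p of 0.061, under the threshold in 6 of 22 alternatives. The rise over time was 2.10-fold with WM-8014 (adjusted p = 1.94e-10) and 2.24-fold with WM-2474 (adjusted p = 1.75e-10). Polr2b, which overlaps Igfbp7, had 83.9 ± 3.00 CPM with WM-8014 and 91.7 ± 1.31 CPM with WM-2474 at 96 h, and 78.4 ± 0.756 and 92.9 ± 1.76 CPM with WM-8014 and WM-2474 at 240 h (SD, n = 3 each). Polr2b was thus lower with WM-8014 at both times. Gene totals do not show how reads in the shared exons were counted, and this was not tested.

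Igf1 itself was scarce. Cultures 5, 6 and 7 held 5.84, 5.25 and 6.76 CPM with WM-8014 at 96 h, against 10.2, 8.83 and 11.5 CPM with WM-2474, which is 77 to 100 reads against 110 to 560 reads. At 240 h they held 10.9, 6.85 and 11.5 CPM with WM-8014, against 16.7, 9.47 and 11.2 CPM with WM-2474. The 96 h groups did not overlap, as was the case for 4 of the 8 genes and 38.1% of all genes at that time, and the 240 h groups overlapped. At 240 h 3 of the 8 genes, and 51.8% of all genes, did not overlap. The log2 fold change at 96 h was -0.81 (SE 0.284, adjusted p = 0.0699), and the 3 same-numbered pairs gave -0.80, -0.74 and -0.75 on the log2 scale. At 96 h same-numbered libraries are treated as paired. With culture number added to the fit as a block the adjusted p was 0.000615 at a log2 fold change of -0.80. Igf1 at 96 h was under the threshold in 7 of 22 alternatives, with log2 fold changes of -0.91 to -0.67 over all of them. No fit with the block left out the divergent WM-2474 pair. At 240 h the log2 fold change was -0.40, with a 95% interval of -0.97 to 0.16 and an adjusted p of 0.23 (0.0292 with the block). Between 96 and 240 h the log2 fold change of Igf1 was 0.65 with WM-8014 (adjusted p = 0.0998, and 0.00102 with the block). With WM-2474 it was 0.24 (adjusted p = 0.485).

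Igf1r, the receptor, was the steadiest of the genes. Its libraries held 226, 245 and 231 CPM with WM-8014 at 96 h, against 239, 250 and 258 CPM with WM-2474. At 240 h they held 261, 274 and 248 CPM with WM-8014, against 261, 266 and 258 CPM with WM-2474. The 95% interval of the log2 fold change was -0.18 to -0.01 at 96 h (adjusted p = 0.119) and -0.09 to 0.08 at 240 h (adjusted p = 0.948). It rose 1.12-fold between 96 h and 240 h with WM-8014 (adjusted p = 0.00317, and 0.0511 without culture 5 in all groups) and was 1.05-fold higher at 240 h with WM-2474 (adjusted p = 0.185).

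Igfbp3, whose product carries most of the circulating IGF and is a classical senescence and growth-arrest gene of fibroblasts, held 42.9, 29.2 and 35.7 CPM with WM-8014 at 96 h, against 54.0, 42.5 and 55.2 CPM with WM-2474. At 240 h it held 56.1, 45.6 and 70.9 CPM with WM-8014, against 91.7, 64.7 and 73.0 CPM with WM-2474. The groups overlapped narrowly at 96 h and overlapped at 240 h, although each culture had less with WM-8014 than its same-numbered partner at both times. The log2 fold change was -0.51 at 96 h, with a 95% interval of -1.04 to 0.02 and an adjusted p of 0.159. The adjusted p became 0.0236 when culture number was a block, which was the only 1 of 22 alternatives under the threshold. Over all 22 the log2 fold change at 96 h was -0.66 to -0.38. No fit with the block left out the divergent WM-2474 pair. At 240 h the log2 fold change was -0.42, with a 95% interval of -0.90 to 0.06 and an adjusted p of 0.143 (0.0208 with the block). The rise of Igfbp3 over time with WM-8014 was 1.59-fold (adjusted p = 0.0415), a call lost under 13 of 22 alternatives. With WM-2474 its level at 240 h was 1.49 times that at 96 h (adjusted p = 0.0594, and 0.00384 with the block).

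Igfbp2, which encodes a main binding protein of fetal tissues, differed by more between cultures than between compounds at 96 h. Cultures 5, 6 and 7 held 25.5, 56.3 and 59.1 CPM with WM-8014 at 96 h, against 36.0, 79.9 and 82.7 CPM with WM-2474. At 240 h they held 97.9, 149 and 139 CPM with WM-8014, against 114, 130 and 135 CPM with WM-2474. Culture 5 was the lowest of its group in all 4 groups. At 96 h the same-numbered differences were -0.50, -0.50 and -0.49 on the log2 scale, and the log2 fold change of -0.55 had a 95% interval of -1.41 to 0.30 (adjusted p = 0.343, and 0.156 with the block). Without culture 5 in all groups the adjusted p was 3.84e-05, in a fit whose WM-2474 96 h group was the divergent pair alone. With that pair left out the log2 fold change turned to 0.38. That fit set WM-2474 culture 5 alone, at 36.0 CPM, against WM-8014 cultures 5, 6 and 7. It is not a same-numbered comparison, and within culture 5 the difference was -0.50. At 240 h the 95% interval was -0.70 to 0.80. With WM-8014 Igfbp2 was 2.78-fold higher at 240 h than at 96 h (log2 fold change 1.48, SE 0.363, adjusted p = 0.00927), with adjusted p of 0.127 and 0.0861 when culture 6 or culture 7 was left out of all groups. With WM-2474 it was 1.83-fold higher at 240 h (adjusted p = 0.0766, and 0.0103 with the block).

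**Figure D3:**
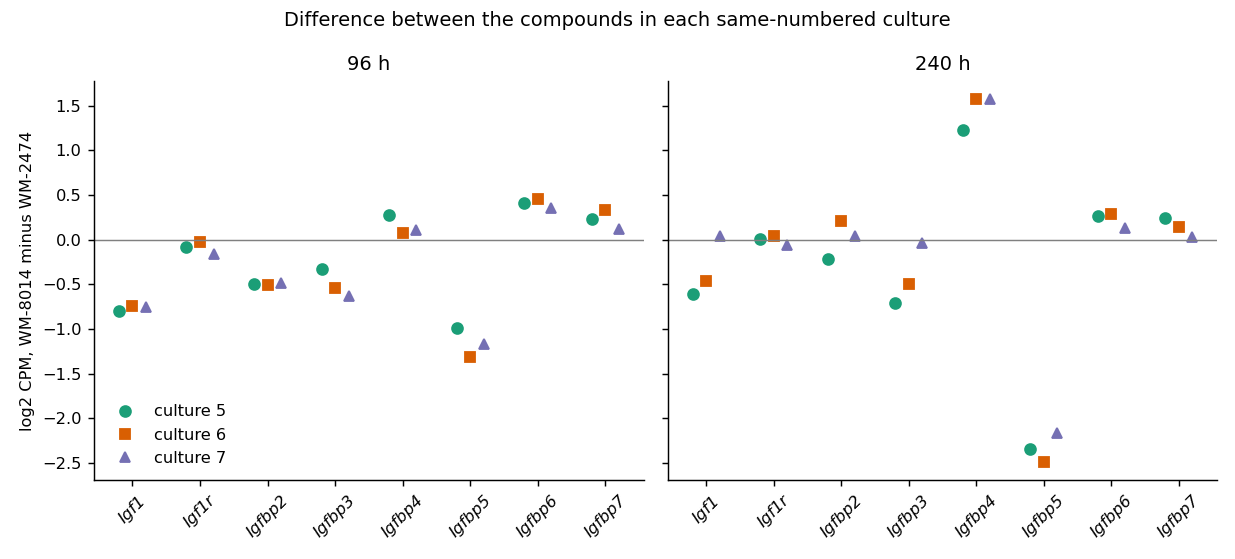
Difference in log2 CPM, WM-8014 minus WM-2474, between the same-numbered cultures at 96 h (left) and 240 h (right), 1 point per culture. At 96 h the points of Igf1 and of Igfbp2 nearly coincide, from -0.80 to -0.74 and from -0.50 to -0.49, and at 240 h those of Igf1, Igfbp2 and Igfbp3 are spread widely.

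Time was compared within each compound. Between 96 and 240 h, 6 of 8 passed with WM-8014, Igf1r, Igfbp2, Igfbp3, Igfbp4 and Igfbp7 higher and Igfbp5 lower, where 49.7% of all genes passed (24.8% higher and 25% lower). With WM-2474 3 of 8 passed, Igfbp7 higher and Igfbp4 and Igfbp5 lower, where 38.9% of all genes passed (19.8% higher and 19.1% lower). The 240 h and 96 h libraries did not overlap for 7 of 8 genes with WM-8014, against 56.5% of all genes, and for 6 of 8 with WM-2474, against 49.4%. The 2 times differ in the days spent in culture as well as in the length of exposure, and these cannot be told apart. Igfbp6 did not pass over time with either compound without the block, at log2 fold changes of -0.06 with WM-8014 and 0.13 with WM-2474. With culture number as a block 7 of 8 passed with WM-8014, Igf1 (adjusted p = 0.00102) among them, where 51.2% of all genes passed. With WM-2474 6 of 8 then passed, where 41.1% of all genes passed. Added there were Igfbp2 (adjusted p = 0.0103), Igfbp3 (adjusted p = 0.00384) and Igfbp6 (adjusted p = 0.0174), all higher.

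Levels of different genes were compared as CPM per kilobase of the deposited gene length (RPKM). Igfbp7 was the highest of the 8 genes in all 4 groups and Igf1 the lowest. Mean Igfbp7 was 490 ± 26.7 RPKM with WM-8014 at 96 h, 418 ± 26.5 with WM-2474 at 96 h, 1029 ± 12.5 with WM-8014 at 240 h and 937 ± 72.3 with WM-2474 at 240 h. Igf1 had 0.761 ± 0.0975, 1.30 ± 0.169, 1.25 ± 0.323 and 1.59 ± 0.481 RPKM in the same groups (SD, n = 3 each). Igfbp5 came next in 3 groups, at 102 ± 17.1 RPKM with WM-8014 at 96 h, 226 ± 13.7 with WM-2474 at 96 h and 175 ± 9.58 with WM-2474 at 240 h. With WM-8014 at 240 h it came after Igfbp7, Igfbp4, Igfbp2 and Igfbp6, at 34.8 ± 4.14 RPKM.

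Igfbp4 took the opposite course, next after Igfbp7 at 109 ± 9.52 RPKM with WM-8014 at 240 h and, at 40.0 ± 8.43 RPKM, after Igfbp7, Igfbp5, Igfbp2 and Igfbp6 with WM-2474 at 240 h. Neighbours in the order did not always differ. Ranges of adjacent genes overlapped for Igfbp5 and Igfbp6 and for Igfbp2 and Igf1r with WM-8014 at 96 h, and for Igfbp6, Igfbp4 and Igfbp2 and for Igf1r and Igfbp3 with WM-2474 at 96 h. They also overlapped for Igfbp4, Igfbp2 and Igfbp6 and for Igfbp3 and Igf1r with WM-8014 at 240 h, and for Igfbp4 and Igfbp3 with WM-2474 at 240 h.

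The 6 binding protein transcripts summed to similar levels under the compounds, while their composition differed. The sum was 803 ± 39.6 RPKM with WM-8014 and 846 ± 23.1 RPKM with WM-2474 at 96 h, and 1381 ± 7.50 RPKM with WM-8014 and 1354 ± 64.1 RPKM with WM-2474 at 240 h, and the ranges overlapped at both times. Igfbp5 made up 12.6 ± 1.58% of it with WM-8014 and 26.7 ± 1.34% with WM-2474 at 96 h, and 2.52 ± 0.288% and 12.9 ± 1.17% with WM-8014 and WM-2474 at 240 h. Igfbp7 made up 60.9% with WM-8014 and 49.3% with WM-2474 at 96 h, and 74.5% and 69.2% with WM-8014 and WM-2474 at 240 h. Igfbp4 made up 7.88% with WM-8014 at 240 h and 2.98% with WM-2474. Without Igfbp7 the sum was 314 ± 14.7 RPKM with WM-8014 and 428 ± 3.39 RPKM with WM-2474 at 96 h, and 352 ± 8.42 and 416 ± 18.0 RPKM with WM-8014 and WM-2474 at 240 h, with no overlap at either time. These sums and shares describe RNA, follow from the values above and were not tested.

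**Figure D4:**
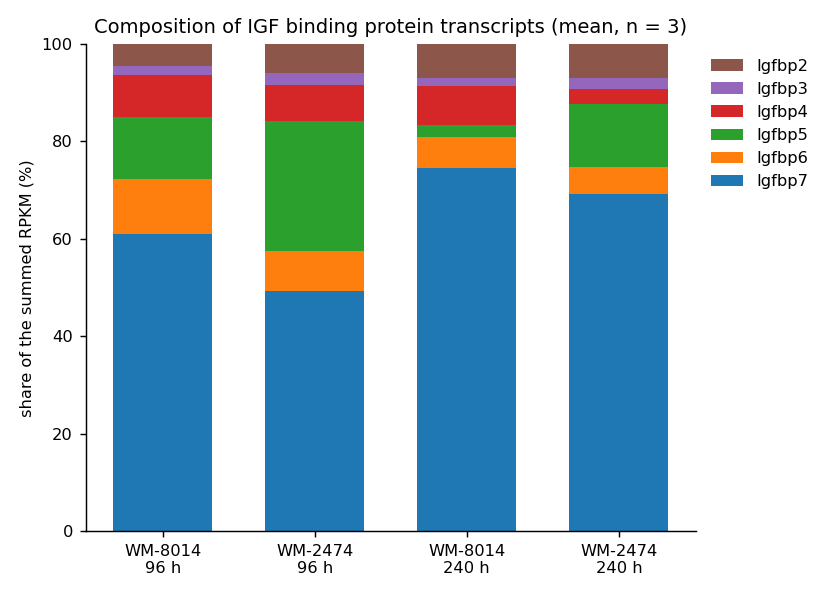
Mean share of each of the 6 binding proteins in their summed RPKM, in percent, for the 4 groups of 3 libraries. The Igfbp5 segment is 12.6% with WM-8014 and 26.7% with WM-2474 at 96 h, and 2.52% with WM-8014 and 12.9% with WM-2474 at 240 h.

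The other ligand, Igf2, was far more abundant than Igf1, at 302 ± 34.0 RPKM with WM-8014 and 284 ± 56.7 RPKM with WM-2474 at 96 h, and 127 ± 29.9 and 87.4 ± 9.37 RPKM with WM-8014 and WM-2474 at 240 h (SD, n = 3 each). Its reads may include those of a second protein-coding gene model that shares its exons on the same strand and of an antisense gene. Igf2 fell over time with both compounds, 2.37-fold with WM-8014 (adjusted p = 0.000932) and 3.25-fold with WM-2474 (adjusted p = 0.000217). Its log2 fold change between the compounds was 0.55 at 240 h (adjusted p = 0.0587, and under the threshold in 4 of 22 alternatives) and 0.09 at 96 h (adjusted p = 0.791). The insulin genes Ins1 and Ins2 had at most 1 read in a library.

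Among the other receptors, Igf2r, which clears IGF2 and sorts lysosomal enzymes, had 465 ± 24.9 CPM with WM-8014 and 610 ± 9.42 CPM with WM-2474 at 240 h. It fell by 0.39 on the log2 scale (SE 0.036, adjusted p = 1.62e-08). At 96 h its log2 fold change was 0.03 (adjusted p = 0.654). The insulin receptor gene Insr passed at neither time, with log2 fold changes of 0.13 at 96 h (adjusted p = 0.061) and 0.04 at 240 h. Of the binding proteins not among the 8 genes, Igfbp1, which lies 3539 bases from Igfbp3, had 0 reads in all 12 libraries, and Igfals and Igfbpl1 had at most 3 reads in any.

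Proteases that cut the binding proteins, with the inhibitors of the PAPP-A enzymes, moved in both directions. Of 14 tested, 7 rose and 1 fell at 96 h, and 5 rose and 5 fell at 240 h, where 22.8% of all genes passed at 96 h and 42.6% at 240 h. With culture number as a block 8 of the 14 rose and 2 fell at 96 h, where 25.4% of all genes passed. Mmp19, a matrix metalloprotease, had 53.2 ± 2.53 CPM with WM-8014 and 34.8 ± 1.11 CPM with WM-2474 at 96 h (log2 fold change 0.62, adjusted p = 1.78e-07) and 60.8 ± 0.681 and 42.4 ± 2.56 CPM with WM-8014 and WM-2474 at 240 h (log2 fold change 0.52, adjusted p = 4.04e-08). Adam9, a membrane metalloprotease, rose by 0.23 on the log2 scale at 96 h (adjusted p = 0.000386), and Ctsd, the lysosomal protease cathepsin D, rose by 0.54 at 240 h (adjusted p = 1.38e-10). Htra3, a secreted serine protease that itself carries an IGFBP-type domain, had 12.2 ± 1.29 CPM with WM-8014 and 28.1 ± 1.71 CPM with WM-2474 at 240 h (log2 fold change -1.19, adjusted p = 3.75e-10). Its log2 fold change at 96 h was -0.58 (adjusted p = 0.000152). With the divergent WM-2474 pair left out the 96 h calls of Htra3 (adjusted p = 0.126) and Adam9 (adjusted p = 0.074) were lost.

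Pappa, which encodes the protease PAPP-A, and Pappa2, which encodes a related protease, were added after their values were seen. Pappa had 126 ± 6.53 CPM with WM-8014 and 181 ± 21.4 CPM with WM-2474 at 240 h (log2 fold change -0.53, SE 0.0898, adjusted p = 0.000785). At 96 h it had 57.3 ± 3.62 CPM with WM-8014 and 71.0 ± 6.42 CPM with WM-2474 (log2 fold change -0.29, adjusted p = 0.0655, and 0.0469 when culture number was a block). It rose over time with both compounds, 2.19-fold with WM-8014 (adjusted p = 3.74e-06) and 2.59-fold with WM-2474 (adjusted p = 9.94e-07). Pappa2, at 0.628 ± 0.455 CPM with WM-8014 and 2.48 ± 0.448 CPM with WM-2474 at 240 h, was also lower (log2 fold change -1.69, adjusted p = 0.00029), at a far lower level than Pappa. Its lowest WM-8014 library at 240 h held 0.202 CPM, where 3 reads correspond to 0.104 to 0.303 CPM in that group. The differences in cultures 5, 6 and 7 were -3.35, -0.94 and -1.78 on the log2 scale.

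Of 11 tested genes whose products share the N-terminal domain of the binding proteins, 3 fell at 96 h, and 2 rose and 4 fell at 240 h, where 22.8% of all genes passed at 96 h and 42.6% at 240 h. With culture number as a block 1 of the 11 rose and 4 fell at 96 h, where 25.4% of all genes passed. Those named are mostly matricellular CCN proteins. At 96 h Ccn1 had a log2 fold change of -0.26 (adjusted p = 0.00774) and Ccn2 one of -0.54 (adjusted p = 0.0132). The call of Ccn2 was lost without culture 5 (adjusted p = 0.0589) or culture 7 (adjusted p = 0.148) in all groups, and without the divergent WM-2474 pair (adjusted p = 0.124). At 240 h Ccn4 had a log2 fold change of -0.50 (adjusted p = 0.00142, and 0.0656 without culture 6 in all groups). Ccn3 had 22.2 ± 10.4 CPM with WM-8014 and 71.0 ± 19.7 CPM with WM-2474 at 240 h (log2 fold change -1.70, adjusted p = 0.00344, and 0.0769 without culture 5 in all groups).

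Below the receptor, 2 of 40 signalling genes tested rose and 7 fell at 96 h, and 9 rose and 8 fell at 240 h, with median log2 fold changes of -0.01 and 0.06. The shares that passed were close to those of all genes, 22.8% at 96 h and 42.6% at 240 h. Irs2, an adaptor that links the insulin and IGF1 receptors to PI3K, had 8.34 ± 0.515 CPM with WM-8014 and 15.5 ± 0.441 CPM with WM-2474 at 240 h (log2 fold change -0.88, adjusted p = 9.61e-09). At 96 h its log2 fold change was -0.36 (adjusted p = 0.00074, and 0.0615 without the divergent WM-2474 pair). Phlpp1, a phosphatase that switches off AKT, fell by 0.38 on the log2 scale at 96 h (adjusted p = 6.28e-05) and by 0.49 at 240 h (adjusted p = 2.28e-07). The receptor-binding adaptor Grb14 fell by 0.38 at 96 h (adjusted p = 0.00365, and 0.0771 without culture 7 in all groups). Its relative Grb10 fell by 0.19 at 240 h (adjusted p = 5.39e-05).

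In the growth hormone receptor axis, which drives Igf1 in liver, 1 of 8 genes rose at 96 h, and 1 rose and 2 fell at 240 h, where 22.8% of all genes passed at 96 h and 42.6% at 240 h. The feedback inhibitor Cish rose by 0.41 on the log2 scale at 240 h (adjusted p = 0.000215) while Socs2, also a feedback inhibitor, fell by 0.45 (adjusted p = 0.000456). The calls of Stat5a at 96 h and Socs1 at 240 h were lost in 8 and 9 of 22 alternatives. Of the 3 IGF2 mRNA binding proteins, Igf2bp2 fell by 0.24 (adjusted p = 2.40e-05) and Igf2bp1 by 0.17 (adjusted p = 0.0132) at 240 h, the second lost in 4 of 22 alternatives, and Igf2bp2 passed narrowly at 96 h (adjusted p = 0.0479, lost in 14 of 22).

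**Figure D5:**
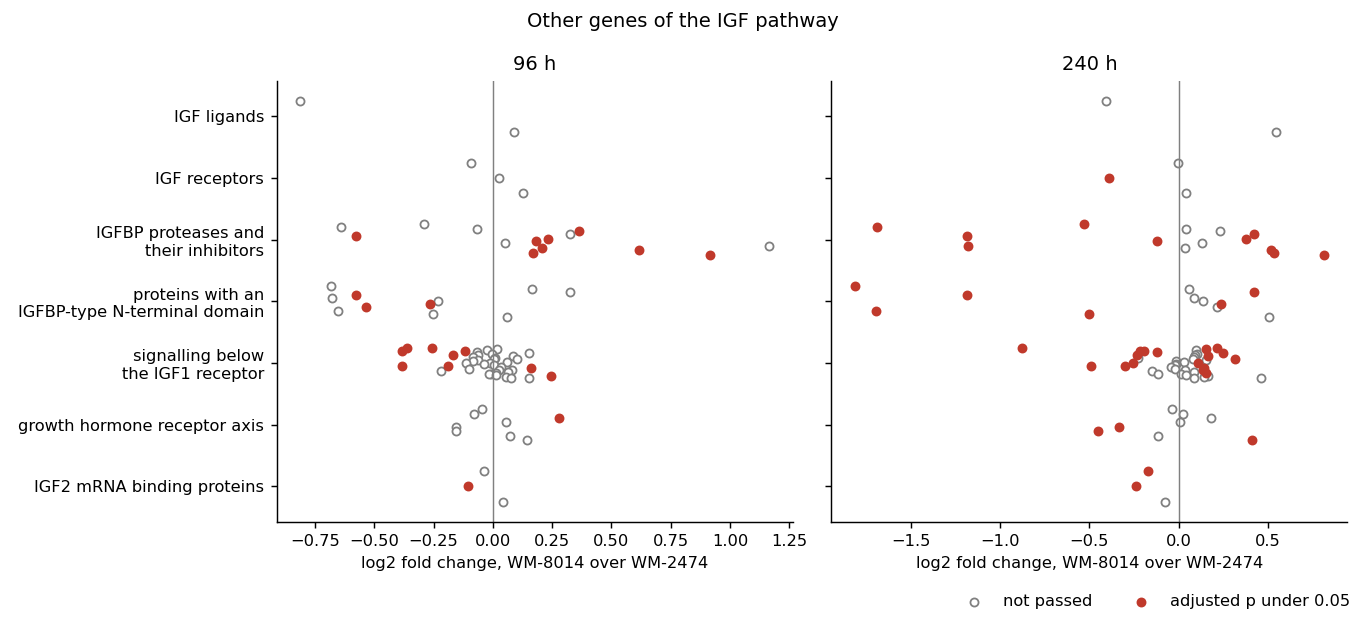
Log2 fold change of WM-8014 over WM-2474 for the tested genes of 7 lists from the IGF pathway, Igf1 and Igf1r included, at 96 h (left) and 240 h (right), 1 circle per gene. Red circles passed at an adjusted p under 0.05. Points lie on both sides of 0 in the lists of proteases and of signalling genes, and at 240 h Ccn3 lies at -1.70, Pappa2 at -1.69 and Htra3, which stands in 2 lists, at -1.19. The lowest point at 240 h, at -1.82, is the sparsely expressed Esm1, named here after its value was seen.

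For genes whose 4 group means spanned at least 1 log2 unit, the genes with the most similar course over the 12 libraries were sought by the root mean square difference of log2 CPM after centring. Igfbp5 was nearest to Adcyap1r1 (difference 0.22), the receptor gene of the neuropeptide PACAP, whose log2 fold changes were -0.86 at 96 h and -2.26 at 240 h, and then to the diacylglycerol kinase gene Dgkk (0.25). Igfbp4 was nearest to Als2cl (0.17) and to Rab3b (0.19), a small GTPase gene of secretory vesicles, which had log2 fold changes of 0.35 at 96 h and 1.61 at 240 h. Igfbp7 was nearest to the collagen prolyl hydroxylase gene P4ha3 (0.065) and to Col5a1 (0.093), a fibrillar collagen gene. The gene nearest to Igf1 was Igfbp3 (0.20), followed by Col8a2 (0.23), and those nearest to Igfbp3 were En1 (0.18) and Pkia (0.19). Igfbp2 had no close match, with Ankrd37 at 0.30 and Tgfb3 at 0.38. These are descriptions over shared libraries, and Igf1r and Igfbp6, whose means spanned 0.16 and 0.41, were not compared.

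Markers of other cell types, summed over each list, were far below those of fibroblasts, though not all were low, and some differed between the compounds. The fibroblast sum was mostly Col1a1, at 10746 to 20023 CPM, and Col1a2, at 5713 to 9668 CPM. Single fibroblast markers were lower, with Pdgfra at 150 to 347 CPM and Dcn at 38.9 to 110 CPM, within reach of other lists' highest markers. Summed over the list, skeletal muscle markers held 31.2 to 34.2 CPM with WM-8014 and 19.9 to 24.1 CPM with WM-2474 at 96 h, and 81.9 to 106 CPM with WM-8014 and 28.2 to 34.8 CPM with WM-2474 at 240 h. Nearly all of this was Des, while Pax7, Myod1, Myog and Myh3 stayed at or below 0.615 CPM. The 7 macrophage and leukocyte markers summed to 9.28 to 12.5 CPM with WM-8014 and 7.89 to 8.36 CPM with WM-2474 at 96 h, and 9.93 to 11.5 and 5.10 to 6.43 CPM with WM-8014 and WM-2474 at 240 h. Adipocyte markers, mostly Pparg and Fabp4, summed to 11.8 to 13.9 CPM with WM-8014 and 8.67 to 10.2 CPM with WM-2474 at 96 h, and 7.56 to 9.58 and 3.69 to 4.31 CPM with WM-8014 and WM-2474 at 240 h. Adipoq, Plin1 and Cidec stayed at or below 0.186 CPM. Epithelial markers were lower with WM-8014 at 96 h, at 0.955 to 1.83 CPM against 2.03 to 3.53 CPM with WM-2474, and overlapped at 240 h, at 0.692 to 1.21 CPM with WM-8014 and 0.891 to 1.13 CPM with WM-2474. Endothelial markers summed to 3.89 to 5.88 CPM with WM-8014 and 5.86 to 7.60 CPM with WM-2474 at 96 h, and 2.42 to 2.65 and 2.31 to 3.12 CPM with WM-8014 and WM-2474 at 240 h.

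Cartilage and bone markers were as abundant as several of the 8 genes. They summed to 117 to 190 CPM with WM-8014 and 124 to 204 CPM with WM-2474 at 96 h, and 86.1 to 127 and 89.0 to 131 CPM with WM-8014 and WM-2474 at 240 h. Most of this was the cartilage collagen gene Col2a1, at 45.8 to 161 CPM over the 12 libraries, and the transcription factor gene Sox9, at 34.4 to 51.9 CPM. Neural markers, mostly Tubb3, summed to 62.9 to 67.0 CPM with WM-8014 and 62.1 to 72.0 CPM with WM-2474 at 96 h, and 53.9 to 66.7 and 58.2 to 76.1 CPM with WM-8014 and WM-2474 at 240 h. The compounds overlapped in both lists at both times. The part of these cells in the values above was not tested, and in bulk libraries fewer cells of a type and less RNA per cell cannot be told apart.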

How the data were processed

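Poly(A) RNA from 12 cultures was sequenced from strand-keeping libraries, per the labels' protocols. The authors deposited raw read counts per gene, made with featureCounts on mm10, as the submitters' processing notes record. The aligner and annotation are, like the strand setting, not given in the sources used here. Gene lengths deposited with the counts served for RPKM only. Of 27179 Entrez identifiers, 25275 matched symbols in a RefSeq table of GRCm38.p6.

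Tests used edgeR 4.0.16 in R 4.3.3. After filterByExpr by group, 14136 genes remained, with TMM scaling. The fit held a mean per group over all 12 libraries (common dispersion as a coefficient of variation, 4.64%). Contrasts were tested two-sided with the robust quasi-likelihood F test, with Benjamini-Hochberg adjustment over all genes tested. From each log2 fold change and F statistic a standard error and a 95% interval were derived. For log2 CPM of single libraries a prior count of 2 was added. A total of 3 reads corresponds to 0.0615 to 0.303 CPM, a limit of counting alone. Replicates differed by more than sampling noise (chi-square per degree of freedom 2.1 to 7.13).

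Same-numbered cultures deviated together from their group means at 96 h, with correlations across genes of 0.14, 0.15 and 0.16 for cultures 5, 6 and 7. All exceeded 0.1, so libraries with the same number are treated as paired at 96 h. The 240 h values of 0.064, 0.24 and 0.048 did not all exceed it, and the block is given there only among the alternatives. Between the times the values for cultures 5, 6 and 7 were 0.064, 0.19 and 0.082 with WM-8014. With WM-2474 they were 0.029, 0.102 and 0.074. These did not all exceed it either, and over time the block is an alternative. Over all pairs of groups, same-numbered libraries had a mean correlation of 0.110 (0.029 to 0.243). Differently numbered libraries had a mean of -0.055 (-0.182 to 0.097). The 96 h pairing was thus inferred, and the Misp3 and Stag3 levels leave it uncertain for the divergent WM-2474 pair.

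The 8 genes and the pathway lists were chosen with earlier results of these data known. From each list up to 3 genes with the smallest p among those that passed were named per compound comparison. Like genes needed a mean log2 CPM of at least 1. Alternatives were DESeq2 1.42.0, its size factors, upper-quartile factors, no filter, the block, only the compared groups, and libraries or cultures left out. Leaving out a culture number in all groups was added after seeing the data. Promoters came from RefSeq, and 8 of 8 genes matched.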

Additional observations from a re-analysis of the deposited data

Results flagged for a closer look

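The effect of WM-8014 relative to WM-2474 differed between 240 h and 96 h, by edgeR's interaction test, for 2 of the 8 genes and for 6 named pathway genes, where 10.7% of all genes passed. The pathway genes had already been named for the smallest p between the compounds. Over whole lists, 1 rose and 3 fell of 14 proteases and inhibitors, and 2 rose and 1 fell of 11 genes with the shared domain. Of 40 signalling genes 1 rose and 1 fell, and 0 of 8 passed in the growth hormone receptor axis. The difference, 240 h minus 96 h on the log2 scale, was 1.29 for Igfbp4 (adjusted p = 0.00652) and -1.19 for Igfbp5 (adjusted p = 0.00407). It was -0.42 for Igf2r (adjusted p = 1.30e-05), -0.61 for Htra3 (adjusted p = 0.00282) and -0.51 for Irs2 (adjusted p = 0.0024). Htra3 and Irs2 were lower with WM-8014 at both times and by more at 240 h, while Igf2r was lower at 240 h and had a log2 fold change of 0.03 at 96 h. It was 0.36 for Ctsd (adjusted p = 4.83e-05), 0.50 for Ccn1 (adjusted p = 0.00207) and 0.75 for Ccn2 (adjusted p = 0.0238). The difference for Ccn2 lost its call in 8 of 21 alternatives. Ccn1 and Ccn2 were lower with WM-8014 at 96 h, while at 240 h Ccn1 had 910 ± 68.1 CPM with WM-8014 and 772 ± 55.5 CPM with WM-2474 (SD, n = 3 each), and Ccn2 had 1776 ± 201 CPM with WM-8014 and 1533 ± 216 CPM with WM-2474.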

How the results depend on the processing

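Of 872 comparisons of the 40 fold changes of the 8 genes with an alternative, 779 kept direction and side of the threshold, 34 gained a call, 43 lost one and 16 changed sign. Igfbp5 at both times and Igfbp4 at 240 h kept their calls in all 22 alternatives. The median of all genes moved by less than 0.1 log2 under other scalings. The replicate block raised the number of the 8 genes called to 5 at 96 h, 5 at 240 h, 7 over time with WM-8014 and 6 with WM-2474. In the same comparisons 25.4%, 44.8%, 51.2% and 41.1% of all genes passed with it, against 22.8%, 42.6%, 49.7% and 38.9% without. With the block the adjusted p at 240 h was 0.0292 for Igf1 and 0.0208 for Igfbp3. With the divergent WM-2474 pair left out at 96 h, which leaves 1 library of that group, assumed to vary like the other groups, 869 genes and 1 of the 8 passed at 96 h, 586 and 0 passed the interaction, and 2710 and 1 passed over time with WM-2474. Without culture 5, 6 or 7 in all groups, 1854, 2123 and 1750 genes passed at 96 h and 885, 724 and 867 passed the interaction, with 1 of the 8 in it without culture 6 and 1 without culture 7, and 5 of the 8 passed over time with WM-2474 without culture 5. In the fit without culture 5 the WM-2474 96 h group is the divergent pair alone. Leaving out single libraries gave 2053 (without WM-2474 96 h culture 7) to 3392 genes at 96 h, 5158 to 6089 at 240 h, 1073 to 1603 in the interaction, 6136 to 7119 over time with WM-8014 and 4293 to 5585 with WM-2474, and 3 to 4, 2 to 4, 2 to 2, 5 to 7 and 2 to 4 of the 8 genes in the same order.

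Signs changed for values that had not passed. With the divergent pair left out, and culture 5 alone as the WM-2474 96 h group, Igfbp2 was 0.38 at 96 h and -0.33 in the interaction. At 240 h it was -0.075 without WM-8014 culture 6, -0.026 without WM-2474 culture 5 and -0.057 without culture 6 in all groups. Igf1r at 240 h was 0.035 without WM-8014 culture 7, 0.0076 without WM-2474 culture 6 and 0.025 without culture 7 in all groups. The interaction of Igfbp3 was -0.040, -0.0017, -0.106 and -0.020 without WM-8014 96 h culture 6, WM-2474 96 h culture 7, WM-8014 240 h culture 7 and WM-2474 240 h culture 6, and -0.235 without culture 7 in all groups. Over time Igfbp6 with WM-8014 was 0.012 without WM-8014 96 h culture 5, and Igf1 with WM-2474 was -0.012 without WM-2474 240 h culture 5 and -0.019 without culture 5 in all groups. Igf2 at 96 h was -0.039 without WM-2474 96 h culture 5. With single libraries left out these results ran, at most, to -0.80 (Igfbp2 at 96 h), 0.19 (Igfbp2 at 240 h), 0.84 (Igfbp2 interaction), -0.043 (Igf1r at 240 h), 0.27 (Igfbp3 interaction), -0.097 (Igfbp6) and 0.41 (Igf1) on the other side of 0, and Igf2 reached 0.40 without the divergent pair. The cause was not tested. Without division by gene length Igfbp5 made up 38.6% of the binding proteins with WM-8014 and 61% with WM-2474 at 96 h, and 10.3% and 40.2% with WM-8014 and WM-2474 at 240 h. Of the 8 genes Igf1 had the fewest reads, 77 to 560 a library.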
